A study of Mus musculus with 16 samples.

Results

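A set of 10 mouse genes that read out, transmit or block canonical Wnt signaling was examined, namely the targets Axin2, Sp5 and Lgr5, the TCF/LEF effectors Lef1, Tcf7, Tcf7l1 and Tcf7l2, and the secreted inhibitors Dkk1, Sfrp1 and Sfrp2. They were taken by gene symbol from the deposited matrix, where they make up 20 of 33702 RefSeq rows, and every row of each gene is given. The samples are embryoid bodies (EBs), aggregates in which embryonic stem cells differentiate, made from cells of the R1 mouse ES line. Day 0 EBs had grown for 4 days without Lif and had received no retinoic acid (RA). Day 4 EBs came from the same culture scheme followed by 4 days in 2 µM RA, so that the effect of RA and the effect of the additional days in culture cannot be told apart. Each day had 2 biological replicates, and every RNA was divided into 4 vials that received one of the in vitro transcribed (IVT) mouse spike-in mixes 1 to 3 or none of them (called mix 4). ERCC mix 1 accompanied the IVT mixes 1 and 3, and ERCC mix 2 the IVT mixes 2 and 4. This gave 16 libraries from 4 RNA samples. The vials of one RNA are splits of the same material, so all tests compared 2 with 2 RNA samples, each as the mean of its 4 vials.

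In canonical Wnt signaling, a secreted Wnt protein binds a Frizzled receptor and an LRP co-receptor, β-catenin escapes degradation and enters the nucleus, and there it joins DNA-bound TCF/LEF proteins to activate target genes. Axin2, Sp5 and Lgr5 are widely used as readouts of that step, and Axin2, a scaffold of the complex that degrades β-catenin, also acts as negative feedback. Dkk1 blocks the LRP co-receptors, while the secreted Frizzled-related proteins (Sfrp) bind Wnt ligands. In early EBs the pathway is known for its part in the formation of primitive streak and mesoderm.

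The RefSeq rows of Lef1 differ in the protein they encode. Some of the sequences that set them apart are shown because the levels of these rows are compared further on. By the GENCODE transcripts paired with them (build GRCm38, plus strand), NM_001276402 and NM_010703 begin with a long first exon, whose coding part of 207 bases lies at chr3:131111472-131111678 and encodes the N-terminal stretch where β-catenin binds. NM_001276403 starts instead at a short exon (chr3:131112797-131112820) and has an open reading frame of 331 codons, against 384 codons in NM_001276402 and 397 codons in NM_010703. An internal exon of 84 bases at chr3:131191023-131191106 is present in NM_010703 and NM_001276403 and absent from NM_001276402. The ends of the reading frames differ as well and are not shown. In the exon before the last, a coding part of 32 bases is in NM_010703 and NM_001276403 and not in NM_001276402. In the last exon, 77 bases are coding in NM_001276402 only. The capitals mark the start codon in the first sequence and nothing is marked in the second.
Lef1 long first exon, coding part: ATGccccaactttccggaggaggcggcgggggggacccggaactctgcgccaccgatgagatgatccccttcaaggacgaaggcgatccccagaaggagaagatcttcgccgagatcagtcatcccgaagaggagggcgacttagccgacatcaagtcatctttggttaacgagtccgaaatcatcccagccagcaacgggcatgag
Lef1 internal exon: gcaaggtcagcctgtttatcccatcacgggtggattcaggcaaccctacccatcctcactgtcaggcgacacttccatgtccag

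Promoter sequences from RefSeq (GRCm38.p6) were available for 8 of the 10 members (Lgr5 and Sfrp1 had none), in 13 windows. The 250 bases before each start were searched on both strands for the TCF/LEF binding sequences CTTTGAT and CTTTGAA, which share their leading letters. A match was found in 2 of the 13 windows and in 2457 of the 32851 windows in the whole table (7.48%). The windows of Sp5 and Dkk1 hold 1 match each, which begins 104 and 117 bases before the start, respectively, and is in capitals below. Both genes were lower at day 4, as were Axin2, Lef1 and Tcf7, whose windows held no match. A match describes letters only, and a window without one says nothing of TCF/LEF binding.
Sp5, chr2:70474673-70474922, plus strand: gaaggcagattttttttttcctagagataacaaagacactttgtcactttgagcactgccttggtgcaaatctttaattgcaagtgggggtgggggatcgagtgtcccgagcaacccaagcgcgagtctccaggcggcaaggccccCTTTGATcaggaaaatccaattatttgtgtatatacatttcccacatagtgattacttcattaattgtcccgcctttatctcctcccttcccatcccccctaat
Dkk1, chr19:30549497-30549746, minus strand: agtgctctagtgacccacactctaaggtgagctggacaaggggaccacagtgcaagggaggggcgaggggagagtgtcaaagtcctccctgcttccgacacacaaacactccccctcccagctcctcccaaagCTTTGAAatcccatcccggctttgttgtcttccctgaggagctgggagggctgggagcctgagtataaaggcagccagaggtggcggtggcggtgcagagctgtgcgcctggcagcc

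The second RNA sample of day 0 was uneven between its vials. Over 11591 genes with a mean of at least 1 FPKM (fragments scaled to transcript length and library size, here also scaled by the authors between libraries), 34.7% differed by at least 1 on the log2 scale between its vials of mixes 3 and 4 and its vials of mixes 1 and 2, whereas this share was 0.147% to 0.276% in the other 3 RNA samples. The difference ran with the GC content of the transcript (Spearman's rho -0.763 across 13988 transcripts of the same libraries, given as a description). For this reason the results of the members are also given without the vials of mixes 3 and 4 of that RNA, wherever this changes a call. This alternative was chosen after the data were seen. FPKM values carry no fragment counts, and the read totals that the paper lists were not used. The depth behind each value was therefore not worked out, and no counting error is given.

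Most of the 10 genes were lower after RA. At the gene level, with the FPKM of the RefSeq rows of a gene summed, 6 of 10 members were called lower and 2 higher (limma on log2(FPKM + 0.1), Benjamini-Hochberg over 20514 genes, adjusted p of at most 0.05). Of all genes tested, 14.5% were called lower and 16% higher. The median log2 change of the members was -2.39, beside -0.03 for all genes. The 8 libraries of day 0 did not overlap the 8 libraries of day 4 in 9 of the 10 members, against 34.4% of all genes. Of the 18 member rows above 0 in some library, 7 were called lower and 1 higher at the transcript level, where 8.67% and 10.2% of all transcripts were called. Each member, including the 2 that were not called, kept its own sign in all 8 vial pairs with the same mix and replicate number. In these pairs 7 members were lower at day 4 and 3 were higher. The 8 pairs are splits of only 2 RNA samples per day, and no source states the pairing by replicate number. How many of all genes kept their sign in this way was not counted. The 7 include Tcf7l1, which was not called, differed by only -0.02 in 1 pair and changed sign after GC correction.

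**Figure D1:**
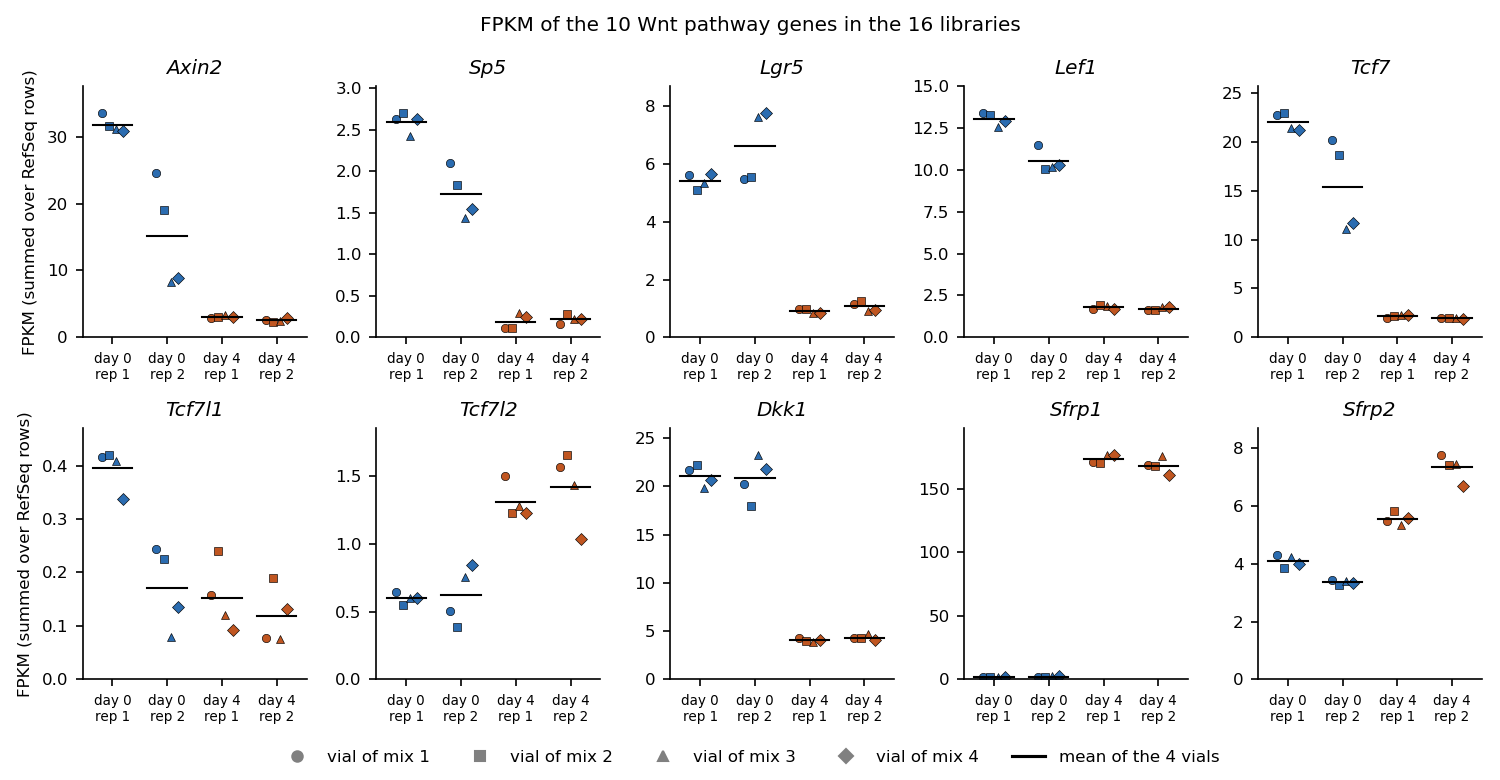
FPKM of each member (y axis, linear, from 0) in the 4 vials of each RNA sample (x axis), with a symbol for each spike-in mix and a line at the mean of the 4 vials. Axin2, Tcf7, Sp5 and Tcf7l1 are lower in the vials of mixes 3 and 4 of the second day 0 sample than in its other vials. Lgr5 and Tcf7l2 are higher there, and only Tcf7l1 overlaps between the days.

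**Figure D2:**
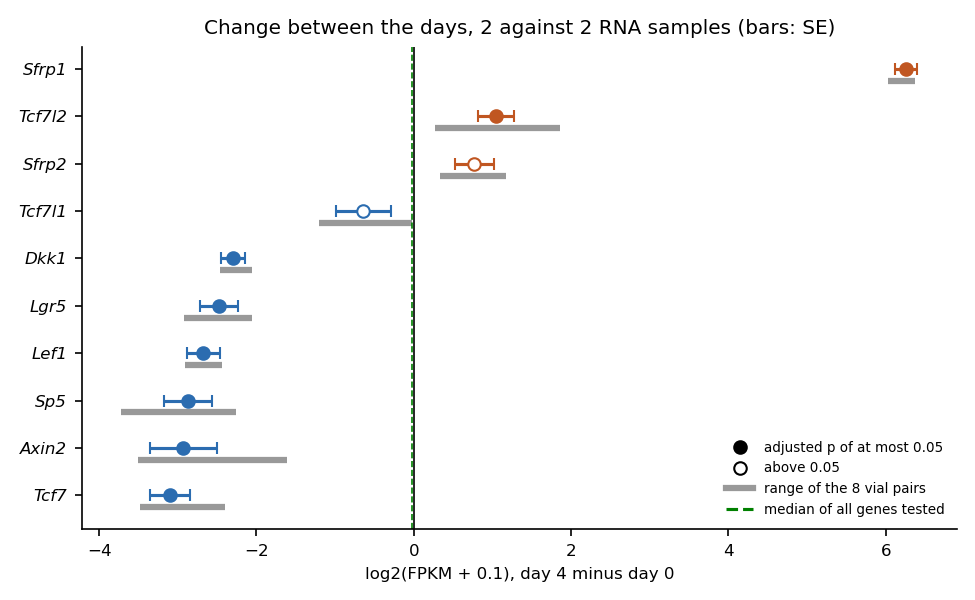
Log2(FPKM + 0.1) at day 4 minus day 0 (x axis) for the 10 members, as the limma estimate with its SE from 2 against 2 RNA samples and, in grey, the range over the 8 vial pairs that share a mix and a replicate number. The values run from -3.10 (Tcf7) to 6.26 (Sfrp1), and the dashed line at -0.03 is the median of all genes tested.

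Among the targets, all 3 were called lower. Axin2 (NM_015732, chr11:108917828-108950783) lay between 8.21 and 33.5 FPKM in the day 0 libraries (median 27.7) and between 2.35 and 3.29 FPKM at day 4 (median 2.85). The days did not overlap, although the day 0 values were widely spread. By RNA sample the means were 31.8 and 15.2 FPKM at day 0 against 3.08 and 2.54 FPKM at day 4. This is a log2 change of -2.93 ± 0.42 (SE, limma, adjusted p = 0.018, n = 2 RNA samples per day). The spread of day 0 came from 1 RNA: its vials of mixes 1 to 4 held 24.6, 19.1, 8.21 and 8.84 FPKM, whereas the vials of the other RNA stayed between 30.8 and 33.5 FPKM. Without the vials of mixes 3 and 4 of that RNA the log2 change was -3.19 (limma, adjusted p = 0.0022). Other alternatives gave a smaller decrease. With FPKM corrected for GC content the log2 change was -2.16 (limma, adjusted p = 0.00080). In the vials of mix 4 alone it was -2.45 and not called (limma, adjusted p = 0.21), and without the first day 0 sample it was -2.40.

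Sp5 (NM_022435, chr2:70474923-70477726), a zinc finger transcription factor that is a direct target of β-catenin, was expressed at a much lower level. It lay between 1.44 and 2.70 FPKM at day 0 (median 2.26) and between 0.108 and 0.298 FPKM at day 4 (median 0.222). All day 4 libraries were far below the lowest day 0 library. The log2 change was -2.87 ± 0.30 (SE, limma, adjusted p = 0.010), which understates the fold of a gene so close to the added 0.1. With the FPKM corrected for GC content, the log2 change was -1.86 (limma, adjusted p = 0.094), so that Sp5 was no longer called, whereas with the replicate as a block added to this correction the adjusted p was 0.013. At 62.0% GC the Sp5 transcript is the richest in GC of the 20 rows. The correction uses the median of all transcripts of similar GC content. Between the uneven vials this median was -2.59 on the log2 scale in the highest of 20 bins of GC content, whereas Sp5 differed by -0.38. The correction can therefore shift Sp5 by more than it differed, and its part in the lost call was not tested.

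Lgr5 (NM_010195, chr10:115450314-115587780) encodes a receptor for R-spondins, which enhance Wnt signals, and marks stem cells of several epithelia. It lay between 5.08 and 7.77 FPKM at day 0 (median 5.599) and between 0.854 and 1.26 FPKM at day 4 (median 0.966). The 2 highest libraries, at 7.62 and 7.77 FPKM, were the vials in which Axin2 was lowest. Between the days Lgr5 changed by -2.48 ± 0.24 on the log2 scale (SE, limma, adjusted p = 0.0091). The other R-spondin receptors differed from it: Lgr4 was called higher, from 28.6 and 33.6 FPKM to 50.2 and 53.1 FPKM, and Lgr6 was at or below 0.126 FPKM in every RNA sample. Lgr5 therefore made up 15.9% and 16.4% of the summed FPKM of the 3 Lgr genes in the day 0 RNA samples and 1.78% and 1.97% at day 4.

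Axin1, which is not known as a Wnt target and carries out the same scaffold function, had 26.0 and 14.6 FPKM at day 0 against 11.1 and 8.19 FPKM at day 4 and was not called (limma, log2 change -1.02 ± 0.36, adjusted p = 0.11). Axin2 was 55.0% and 51.0% of the Axin1 and Axin2 sum at day 0, and 21.7% and 23.7% at day 4. No test of this share was made.

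Of the 4 TCF/LEF effectors, Lef1 and Tcf7 were called lower and Tcf7l2 higher, while Tcf7l1 was not called. Their summed level went from 36.1 and 26.7 FPKM in the day 0 RNA samples to 5.42 and 5.21 FPKM at day 4. Tcf7 and Lef1 together dominated at day 0, with 61.1% and 57.7% for Tcf7 and 36.1% and 39.3% for Lef1. At day 4 Tcf7l2 had reached 24.1% and 27.3% of the sum, from 1.66% and 2.33%. This share depends on the level of Tcf7l2 and on those of Tcf7 and Lef1 alike.

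Tcf7 (NM_009331, chr11:52246527-52283383) encodes TCF1, which works mostly as an activator with β-catenin and is itself a Wnt target. It lay between 11.1 and 22.9 FPKM at day 0 (median 20.7) and between 1.89 and 2.28 FPKM at day 4 (median 2.00). The groups did not overlap, and the 2 lowest day 0 libraries were again the vials of mixes 3 and 4 of the second RNA, with 11.1 and 11.7 FPKM. Its log2 change of -3.10 ± 0.25 (SE, limma, adjusted p = 0.0068) was the lowest of the 10 members and ranked 436 among the decreases of 20514 genes.

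Lef1 (chr3:131110297-131224357), an effector that is also induced by Wnt signals, lay between 10.1 and 13.4 FPKM at day 0 (median 12.05) and between 1.60 and 1.93 FPKM at day 4 (median 1.74) when its 3 rows were summed. Its log2 change was -2.67 ± 0.21 (SE, limma, adjusted p = 0.0066). Unlike Axin2 and Tcf7, the summed Lef1 level was nearly the same in all 4 vials of the second day 0 RNA, at 11.5, 10.1, 10.2 and 10.3 FPKM.

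The rows of Lef1 behaved differently from their sum. NM_001276402, with the long first exon, held 8.65, 8.66, 8.66 and 9.15 FPKM in the vials of mixes 1 to 4 of the first day 0 RNA and 7.003, 5.14, 1.98 and 2.30 FPKM in those of the second. NM_001276403, with the short first exon, held 3.77, 4.64, 3.92 and 3.76 FPKM in the first and 4.51, 4.93, 8.20 and 7.97 FPKM in the second. Within the second RNA one row was thus high where the other was low, and the sum stayed level. At day 4 NM_001276402 lay between 0.228 and 0.642 FPKM and NM_001276403 between 1.05 and 1.49 FPKM. Both rows were called lower, by log2 changes of -3.40 ± 0.49 and -1.92 ± 0.33 (SE, limma over 28214 transcripts, adjusted p = 0.029 and 0.037). Both calls were close to the threshold: without the first day 0 sample the adjusted p-values were 0.069 and 0.055, and no transcript of any gene was called then (11395 had an unadjusted p under 0.05), and with 1 added in place of 0.1 they were 0.052 and 0.060. NM_010703 was listed at 0 in 14 of the 16 libraries and reached 0.979 FPKM in 1 vial.

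The share of NM_001276402 in the Lef1 sum was 67.3% and 39.1% in the day 0 RNA samples and 31.3% and 23.9% at day 4. NM_001276403 accounted for 30.8% and 60.9% at day 0 and for 68.7% and 76.0% at day 4. The difference in the share of NM_001276402 was -25.6 ± 12.4 percentage points (SE, limma over 8112 transcripts, adjusted p = 0.38) and that of NM_001276403 was 26.5 ± 13.2 percentage points (adjusted p = 0.39). Neither was called, and few transcripts were: 0.0123% of those tested had a higher and 0.0247% a lower share by this criterion. Without the vials of mixes 3 and 4 of the second day 0 RNA, the differences were -34.2 (limma, adjusted p = 0.062) and 35.05 percentage points (adjusted p = 0.069), which still missed the threshold. In those 2 vials the share of NM_001276402 was 19.4% and 22.4%, within the day 4 range of 13.9% to 37.6%, whereas in the other 6 day 0 vials it lay between 51.0% and 70.9%. The long first exon shown above in part has a GC content of 60.5% over its 1208 bases, and the exons common to the 3 transcripts have 46.2% over 2149 bases. The part of GC content in the share was not tested.

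**Figure D3:**
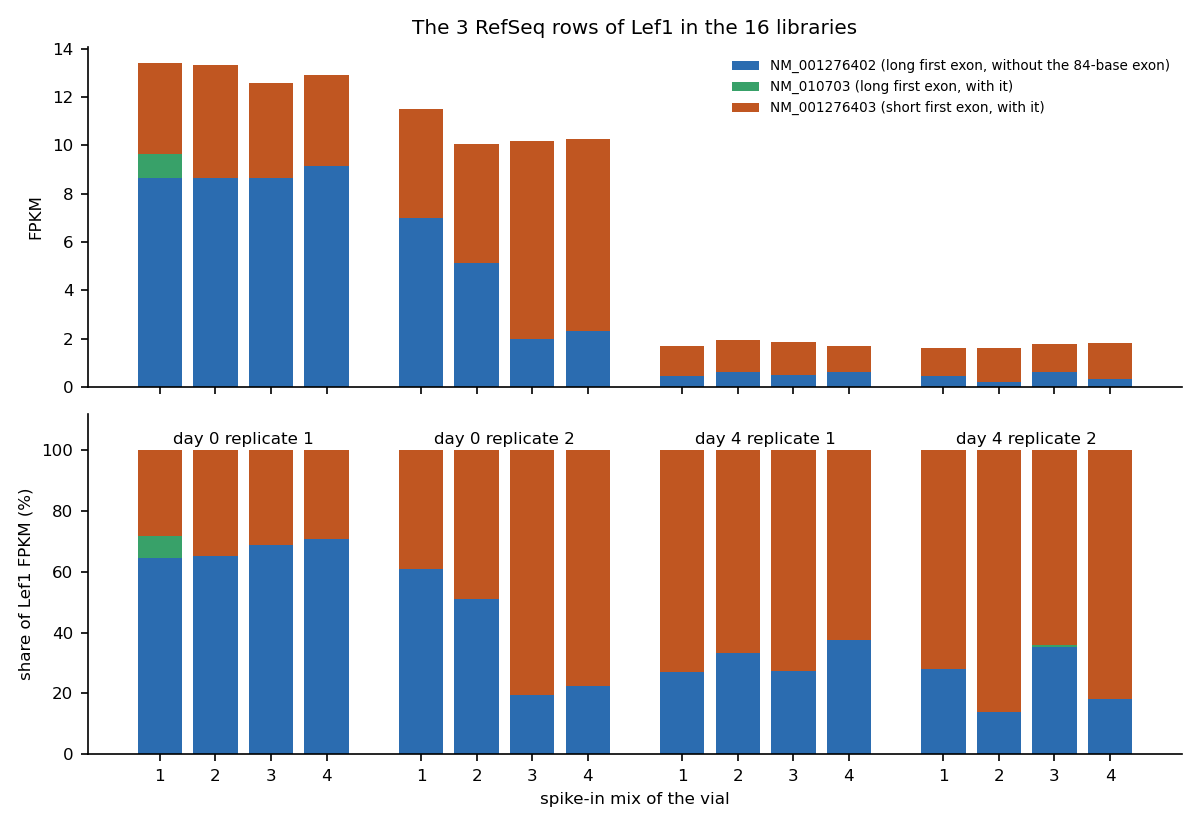
FPKM (upper axis, from 0) and percent of the Lef1 sum (lower axis) of the 3 Lef1 rows in each of the 16 libraries, ordered by RNA sample and spike-in mix. The share of NM_001276402 is 51.0% to 70.9% in 6 day 0 vials and 19.4% and 22.4% in the vials of mixes 3 and 4 of the second day 0 RNA, while the summed height stays between 10.1 and 13.4 FPKM at day 0.

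Tcf7l2 (chr19:55741797-55933659) encodes TCF4, an effector with activating and repressing isoforms, and has 8 rows. Its summed level lay between 0.383 and 0.842 FPKM at day 0 (median 0.601) and between 1.04 and 1.66 FPKM at day 4 (median 1.36). The days did not overlap, and the RNA sample means were 0.598 and 0.622 FPKM against 1.31 and 1.42 FPKM. Its log2 change was 1.04 ± 0.23 (SE, limma, adjusted p = 0.042), close to the threshold. Without the first day 0 sample it was 1.02 and no longer called (limma, adjusted p = 0.071), and averaging the vials on the log2 scale gave an adjusted p of 0.053.

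No single row of Tcf7l2 was called, and the rows could not be resolved at this level. NM_001142918 and NM_001142919 were listed at 0 in all 16 libraries and were not tested. NM_001142924 was listed at 0 in 4 day 0 vials and reached 0.521 FPKM in another, and at day 4 it lay between 0.223 and 0.847 FPKM. NM_001142923 was listed at 0 in 5 day 0 vials, but was 0.641 FPKM in the vial of mix 1 of the first RNA, and lay between 0.175 and 0.809 FPKM at day 4. These were the highest rows of the gene at day 4, with means of 0.518 ± 0.167 and 0.469 ± 0.012 FPKM (SD, n = 2 RNA samples). Their adjusted p-values were 0.16 and 0.053 (limma), and were 0.042 and 0.041 with the replicate as a block and 0.0074 and 0.028 without the uneven day 0 vials. NM_009333 had an adjusted p of 0.32 (limma), and was called with the block (0.043), with the block and GC correction (0.049) and in the vials of mixes 1 and 2 alone (0.018), although it was above 0 in only 1 vial at day 0 and 3 at day 4. The isoforms share most of their exons, so their reads are split by estimation, and splits of the same RNA often disagreed on which row was above 0.

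Tcf7l1 (chr6:72626371-72789045) encodes TCF3, which acts mainly as a repressor of Wnt targets in ES cells. It was low throughout, between 0.079 and 0.420 FPKM at day 0 (median 0.290) and between 0.076 and 0.240 FPKM at day 4 (median 0.126). The libraries overlapped, because the vials of the second day 0 RNA reached down to 0.079 FPKM. Its log2 change was -0.64 ± 0.35 (SE, limma, adjusted p = 0.23) and was not called. Without the second day 0 sample it was -1.08 (limma, adjusted p = 0.042), and with FPKM corrected for GC content it was 0.23 (adjusted p = 0.33), so no direction is given for this gene. Of its 2 rows, NM_001079822 was listed at 0 in all 8 day 4 vials and in 3 vials of day 0, and NM_009332 supplied the whole day 4 level.

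The secreted inhibitors moved in opposite directions. Sfrp1 (NM_013834, chr8:23411383-23449632) lay between 1.99 and 2.37 FPKM at day 0 (median 2.09) and between 160 and 176 FPKM at day 4 (median 170). The 4 RNA samples had 2.07, 2.19, 173 and 168 FPKM, so that the days differed by far more than the replicates or the vials. On the log2 scale the change was 6.26 ± 0.14 (SE, limma, adjusted p = 0.0046), which is 76.7-fold on the scale with 0.1 added. Its increase ranked 30 among the 20514 genes, and its level went from the 50.8 to the 98.2 percentile of genes.

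Sfrp2 (NM_009144, chr3:83765750-83774314), the closest relative of Sfrp1 among the members, lay between 3.25 and 4.29 FPKM at day 0 (median 3.63) and between 5.35 and 7.77 FPKM at day 4 (median 6.26). The libraries did not overlap, but the day 4 RNA samples, at 5.56 and 7.34 FPKM, were further apart than those of day 0, at 4.09 and 3.36 FPKM. Its log2 change of 0.77 ± 0.25 (SE, limma, adjusted p = 0.086) was not called. It was called with the replicate as a block (limma, adjusted p = 0.041), with FPKM corrected for GC content (log2 change 1.19, adjusted p = 0.033) and without the uneven vials of day 0 (log2 change 0.77, adjusted p = 0.036).

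Across the family of secreted Frizzled-related proteins, Sfrp1 made up 25.7% and 26.3% of the summed FPKM at day 0 and 96.4% and 95.3% at day 4. Sfrp2 had been the highest of the family at day 0, with 50.7% and 40.4%. Frzb, also called Sfrp3, was called lower, from 1.64 and 2.58 FPKM to 0.638 and 0.631 FPKM. Sfrp5 was called higher but stayed at or below 0.243 FPKM, and Sfrp4 had at most 0.197 FPKM and was not called.

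Dkk1 (NM_010051, chr19:30545876-30549496), which is itself induced by Wnt signals, lay between 17.99 and 23.3 FPKM at day 0 (median 21.2) and between 3.86 and 4.67 FPKM at day 4 (median 4.16). It was among the most even members, with RNA sample means of 21.1 and 20.8 FPKM at day 0 against 4.05 and 4.32 FPKM at day 4. The log2 change was -2.30 ± 0.15 (SE, limma, adjusted p = 0.0054). Dkk1 accounted for 82.4% and 85.9% of the summed FPKM of the 4 Dkk genes at day 0 and for 48.0% and 50.8% at day 4. Dkk3, a divergent relative not regarded as a typical LRP blocker, remained between 3.06 and 4.18 FPKM in the 4 RNA samples and was not called (limma, adjusted p = 0.87). Dkk2 was called higher, from 0.298 and 0.332 FPKM to 0.885 and 0.789 FPKM.

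The levels were compared in FPKM and therefore per length. Axin2, Tcf7, Lef1, Lgr5, Sp5 and Tcf7l1 stood in this order, from high to low, on both days, while Sfrp1, Sfrp2 and Tcf7l2 took higher places at day 4. At day 0, Axin2 (23.5 ± 11.7 FPKM, SD, n = 2 RNA samples), Dkk1 (20.9 ± 0.2) and Tcf7 (18.7 ± 4.7) were the highest and did not differ beyond their spread. Lef1 (11.8 ± 1.8), Lgr5 (6.02 ± 0.84) and Sfrp2 (3.72 ± 0.51) followed in that order. Sp5 (2.16 ± 0.61) and Sfrp1 (2.13 ± 0.08) had overlapping values, and Tcf7l2 (0.610 ± 0.017) and Tcf7l1 (0.283 ± 0.159) were the lowest. At day 4, Sfrp1 (171 ± 4 FPKM) stood far above Sfrp2 (6.45 ± 1.3), Dkk1 (4.18 ± 0.19) and Axin2 (2.81 ± 0.38). Tcf7 (2.06 ± 0.15), Lef1 (1.75 ± 0.06), Tcf7l2 (1.37 ± 0.08) and Lgr5 (0.993 ± 0.110) lay close together, and Sp5 (0.205 ± 0.020) and Tcf7l1 (0.136 ± 0.024) were lowest. In bulk RNA, fewer cells that express a gene and less of its RNA per cell cannot be told apart.

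The uneven vials of day 0 touched the members in different directions. From the vials of mixes 1 and 2 to those of mixes 3 and 4 of the second RNA, the log2 difference was -1.35 for Axin2, -0.76 for Tcf7, -0.38 for Sp5 and -1.46 for Lef1 NM_001276402. It was 0.76 for Lef1 NM_001276403, 0.47 for Lgr5, 0.24 for Dkk1, 0.14 for Sfrp1 and 0.02 for Sfrp2. Summed over their rows, Tcf7l1 differed by -0.69 and Tcf7l2 by 0.72. Leaving aside these summed genes, the rows that were lower in these vials have GC contents of 51.3% to 62.0%, and those that were higher have 45.9% to 52.9%. Over all transcripts, the median difference was 0.98 in the lowest of 20 bins of GC content and -2.59 in the highest. Sp5, at 62.0% GC, thus differed far less between the vials than most transcripts of such GC content. Sfrp1, Sfrp2, Lgr5 and Lef1 NM_001276403 also lay above the quartiles at their GC content, and Lef1 NM_001276402 lay below them. The part of GC content in the members' values was not tested beyond the corrected values given above.

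**Figure D4:**
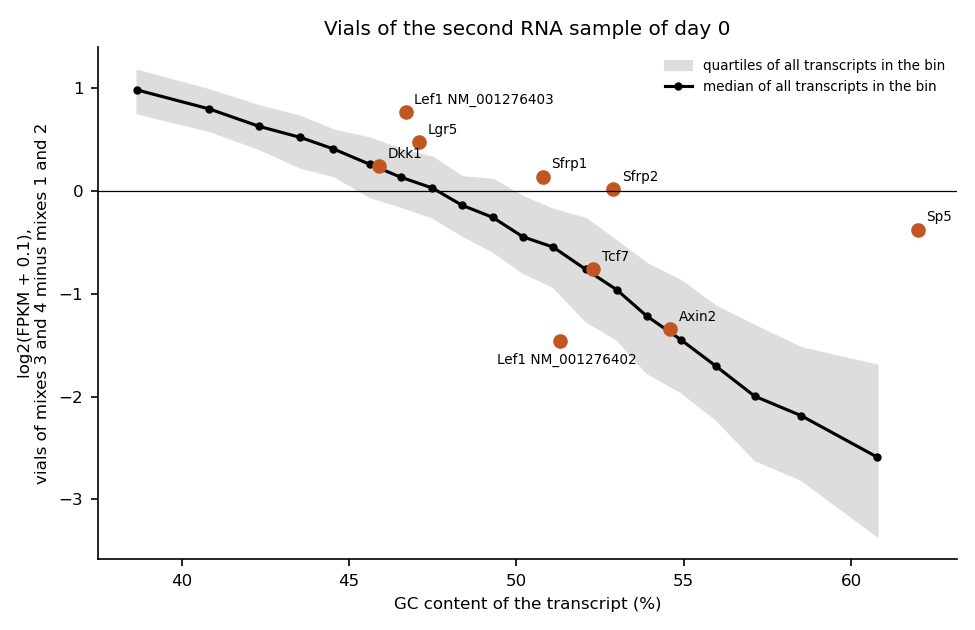
Difference in log2(FPKM + 0.1) between the vials of mixes 3 and 4 and those of mixes 1 and 2 of the second day 0 RNA (y axis) against the GC content of the transcript (x axis, percent), for the median and quartiles of 20 bins of 13988 transcripts and for 9 rows of the members. The bin medians go from 0.98 to -2.59, and Axin2 (-1.35) and Tcf7 (-0.76) lie near them. Sp5 (-0.38), Sfrp2 (0.015), Sfrp1 (0.14), Lgr5 (0.47) and Lef1 NM_001276403 (0.76) lie above the quartiles, and Lef1 NM_001276402 (-1.46) lies below them.

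A further 94 genes of the pathway were listed by role, and all were tested. Of these, 21 were called higher, 22 lower and 51 were not called, and their median log2 change was -0.33. The 43 called genes were 45.7% of the list, beside 30.5% of all genes called in either direction. The pathway lists and the markers below are given for the main fit only. Without the uneven vials of day 0, 12444 of all genes were called in place of 6255, and the calls of the lists in that fit were not examined.

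Of the 18 Wnt ligands, 8 were called lower, 2 higher and 8 were not called (median log2 change -1.03). The lowest were Wnt3, needed for primitive streak formation, from 16.7 and 8.86 FPKM to 0.159 and 0.133 FPKM (log2 change -5.64 ± 0.40), and Wnt3a, an activator of the canonical branch, from 1.69 and 0.735 FPKM to 0.009 and 0 FPKM (-3.55 ± 0.43). In the opposite direction, Wnt2b had 0.525 and 0.501 FPKM at day 0 against 10.1 and 9.47 FPKM at day 4 (log2 change 4.01 ± 0.21), and Wnt11, mostly linked to signaling without β-catenin, went from 1.64 and 0.692 FPKM to 6.60 and 5.40 FPKM (2.37 ± 0.47). The adjusted p-values of these 4 genes were 0.0055, 0.013, 0.0046 and 0.033 (limma).

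Of the 16 receptors, 8 were called higher, 1 lower and 7 were not called (median log2 change 0.59). Fzd4 went from 2.77 and 3.22 FPKM to 24.9 and 28.0 FPKM (log2 change 3.10 ± 0.18, limma, adjusted p = 0.0047), and the tyrosine kinase receptor Ror1 from 0.355 and 0.311 FPKM to 4.33 and 3.91 FPKM (3.29 ± 0.24, adjusted p = 0.0058). The only Frizzled called lower was Fzd10, with 33.8 and 17.1 FPKM at day 0 against 0.258 and 0.214 FPKM at day 4 (log2 change -6.17 ± 0.41, limma, adjusted p = 0.0053).

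Of the 10 genes for Wnt secretion, R-spondins and their receptors, 4 were called higher, none lower and 6 were not called (median log2 change 0.47). Rspo2 had 0.019 and 0.035 FPKM at day 0 against 2.69 and 3.34 FPKM at day 4 (log2 change 4.61 ± 0.24, limma, adjusted p = 0.0046), and Rspo1 went from 0.467 and 0.233 FPKM to 4.35 and 4.66 FPKM (3.40 ± 0.36, adjusted p = 0.010). R-spondins potentiate Wnt signals through the Lgr receptors described above.

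Of the 11 cytoplasmic components, 2 were called higher, none lower and 9 were not called (median log2 change -0.12). Ctnnb1, which encodes β-catenin, had 351 and 302 FPKM at day 0 against 679 and 680 FPKM at day 4 (log2 change 1.06 ± 0.17, limma, adjusted p = 0.023). The kinase gene Csnk1a1, whose product starts the phosphorylation of β-catenin for degradation, went from 138 and 180 FPKM to 288 and 307 FPKM (0.92 ± 0.20, adjusted p = 0.040). Among the 13 nuclear cofactors, 2 were called higher, 1 lower and 10 were not called (median log2 change -0.02). Pygo1, a coactivator of β-catenin, went from 1.03 and 0.813 FPKM to 5.25 and 5.31 FPKM (2.41 ± 0.24, limma, adjusted p = 0.0094). Of the Groucho corepressors, Tle1 was called higher (log2 change 1.07 ± 0.17, limma, adjusted p = 0.022) and Tle4 lower (-0.88 ± 0.15, adjusted p = 0.027).

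Of the 15 other inhibitors, 3 were called higher, 3 lower and 9 were not called (median log2 change -0.47). These counts are near the shares of all genes, of which 16% were called higher and 14.5% lower. Notum, which removes the lipid of Wnt proteins and is a feedback inhibitor, had 5.96 and 2.06 FPKM at day 0 against 0.206 and 0.121 FPKM at day 4 (log2 change -3.80 ± 0.60, limma, adjusted p = 0.022). Apcdd1, another inhibitor that Wnt signals induce, went from 30.1 and 15.6 FPKM to 2.30 and 2.12 FPKM (-3.24 ± 0.38, adjusted p = 0.012). Wif1, which binds Wnt proteins outside the cell, went from 0.033 and 0.022 FPKM to 1.31 and 1.39 FPKM (3.51 ± 0.19, adjusted p = 0.0046). Dkk2, named above, had the next largest change among those called higher (1.17 ± 0.22, adjusted p = 0.030).

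The 11 other targets resembled Axin2, Sp5 and Lgr5 in direction. Of these, 9 were called lower, none higher and 2 were not called, and the median log2 change of -2.87 was close to that of Sp5, the median of the 3 target members. T (Brachyury), the marker of primitive streak and early mesoderm, had 72.7 and 61.3 FPKM at day 0 against 0.024 and 0.014 FPKM at day 4 (log2 change -9.13 ± 0.23, limma, adjusted p = 0.0046). Cdx2, a regulator of posterior axial tissue, went from 57.6 and 31.3 FPKM to 0.164 and 0.212 FPKM (-7.21 ± 0.38, adjusted p = 0.0046).

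**Figure D5:**
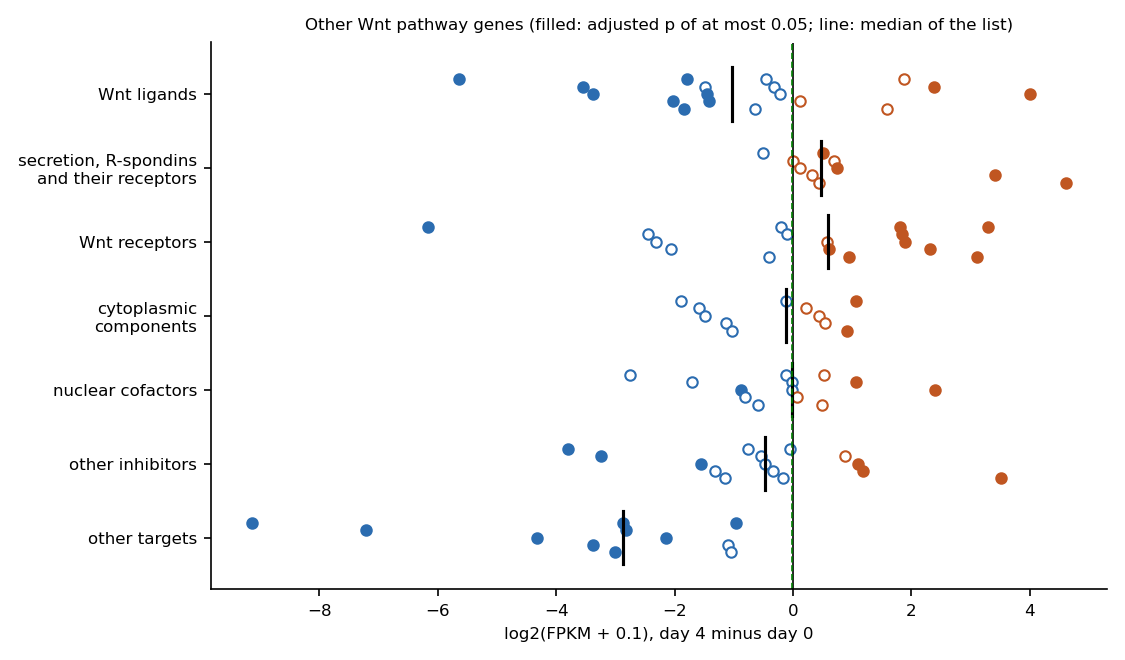
Log2(FPKM + 0.1) at day 4 minus day 0 (x axis) of the 94 other pathway genes by role (y axis), one point per gene, filled where the adjusted p was at most 0.05, with the median of each list as a black line and the median of all genes tested (-0.03) as a dashed line. The other targets have the lowest median (-2.87), and the receptors the highest (0.59).

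Many of these targets are also genes of primitive streak and mesoderm, and the cell type markers differed between the days as well. Of 8 markers of pluripotent cells, 7 were called lower and none higher, and their summed level was 204 and 148 FPKM in the day 0 RNA samples and 13.7 and 9.05 FPKM at day 4. Of 5 mesoderm markers, 4 were called lower and 1 higher, with sums of 89.0 and 67.9 FPKM at day 0 against 20.2 and 19.9 FPKM at day 4. Mesp1 was listed at 0 in both day 4 means. Kdr, also called lower, still had 17.5 and 17.0 FPKM at day 4, and Meox1, the marker called higher, had 2.66 and 2.90 FPKM. Mesenchymal markers were higher in 4 of 6 genes and lower in 1, with sums of 43.7 and 28.5 FPKM against 268 and 256 FPKM, and endoderm markers were higher in 5 of 7 and lower in none, with 16.6 and 14.9 FPKM against 78.3 and 77.9 FPKM. Of 8 neural markers 3 were called higher and 3 lower, and their sum was 41.9 and 27.0 FPKM at day 0 against 22.0 and 24.2 FPKM at day 4. Of 4 endothelial and blood markers, 1 was called higher and none lower. Of 7 genes known to respond to RA, 5 were called higher and 1 lower. Rarb, the RA receptor gene that RA itself induces, went from 0.190 and 0.200 FPKM to 106 and 107 FPKM. The gene called lower was Cyp26a1, from 48.9 and 52.4 FPKM to 8.43 and 9.34 FPKM, and Hoxb1 was not called (log2 change 0.02). The labelled cell type is embryonic stem cells, and at day 4 Pou5f1, their defining factor, was at 1.03 and 0.693 FPKM, from 87.3 and 37.2 FPKM. The part of these cell type changes in the values of the 10 members was not tested.

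With 2 RNA samples per day an exact permutation test could not go below p = 0.333, and the calls rest on the variance that limma shares between genes. Leaving out either day 4 sample left the spread to be estimated from the day 0 samples alone, and no gene was then called by limma (4936 and 4717 genes had an unadjusted p under 0.05). The log2 changes of the 8 called members stayed within -3.17 to -2.25 for the lower ones and within 0.99 to 6.28 for the higher ones in these fits. Adding the replicate as a block raised the number of genes called lower from 2975 to 5976 and left all 8 calls in place.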

How the data were processed

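Strand-specific RiboZero libraries were sequenced as paired ends. Per the labels and the study's methods, the authors aligned reads with Bowtie2 2.1.0 to RefSeq transcripts of mm10 plus the spike-ins, estimated abundance with RSEM 1.2.18, and deposited FPKM scaled by a TMM factor per library (0.928 to 1.13 here, recovered from steps of 0.01 FPKM). The deposited FPKM hold no counts. The paper lists the total reads of each library, which were not used here. Groups were taken from the labels and the RNA sample of each vial from the study's sample table.

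FPKM were summed per gene, averaged over the 4 vials and tested with R 4.3.3 and limma 3.58.1 (log2(FPKM + 0.1), eBayes with a trend, Benjamini-Hochberg over all features, spike-in genes and features at 0 throughout left out, adjusted p of at most 0.05). Isoform shares were tested likewise, without a trend, in genes with at least 1 FPKM at each day. The fits were tested on simulated data. GC content came from GENCODE transcripts matched to 98.7% of rows. The GC correction divides each library by its median deviation in 20 bins of GC content, and can also remove differences between the days.

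The study repeated its procedure to obtain the replicates, so equal numbers are read as one repeat, although no source states this pairing. Deviations of replicate 1 correlated between the days with r = 0.766 over 11591 genes. This cannot settle the pairing, because the day 0 replicates also differed through the uneven vials. The members and gene lists were chosen with earlier results of these data known. All members were named, and of each pathway list up to 2 called genes with the largest change in each direction. Other genes of the Lgr, Axin, Sfrp and Dkk families were named after their values were seen. So were Pou5f1, Mesp1, Kdr, Meox1, Rarb, Cyp26a1 and Hoxb1.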

Additional observations from a re-analysis of the deposited data

Results flagged for a closer look

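Among 48 sets of 4 vials of one RNA with at most 2 vials at 0, 3 held a vial whose gap to the nearest other vial exceeded the 95% limit of Dixon's test, where chance alone gives about 1 in 20. The summed Lef1 level in the vial of mix 1 of the second day 0 RNA was 11.5 FPKM, above the other vials at 10.1 to 10.3 FPKM. In the first day 0 RNA, Tcf7l1 was at 0.337 FPKM in the vial of mix 4, below 0.409 to 0.420 FPKM in the others, and Lef1 NM_001276402 was at 9.15 FPKM in that vial, above 8.65 to 8.66 FPKM. In 2 further sets 3 vials were at 0, where any value in the remaining vial passes this limit, so the chance rate does not apply to them. NM_010703, the Lef1 row with both the long first exon and the internal exon, was at 0.979 FPKM in the vial of mix 1 of the first day 0 RNA and at 0.010 FPKM in the vial of mix 3 of the second day 4 RNA, while the other 3 vials of each RNA were listed at 0.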

How the results depend on the processing

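With 20 alternatives tried, of which 17 apply to a gene (Tcf7l1 and Tcf7l2 had no value under the filter of 1 FPKM), the log2 changes of the 8 called members kept their sign in all of them, and in 168 comparisons of a member gene with its main value 138 kept both sign and side of the threshold. Leaving out either day 4 sample ended every call, since the spread then came from the day 0 samples alone. Among the other alternatives, the vials of mix 4 alone, with 1 vial per RNA sample, ended the calls of Axin2, Sp5, Tcf7 and Tcf7l2 (adjusted p = 0.21, 0.075, 0.068 and 0.43), and the cause was not tested. Reversals were limited to values that were not called: Tcf7l1 (log2 change 0.23 after GC correction, with or without the replicate block), its row NM_009332 (0.47 after GC correction in both fits and 0.46 in the vials of mix 4) and Lef1 NM_010703, whose log2 change went from -1.77 to 0.018 and whose share difference from -1.80 to 0.073 percentage points over the fits without 1 RNA sample. The replicate block ended no call of a member gene and added only that of Sfrp2.

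The counts over all features moved more. For genes called higher and lower, from 3280 and 2975, the counts were 5615 and 4984 after GC correction, 6063 and 5592 with GC correction and replicate block, 4623 and 5976 with the replicate block, 5183 and 6424 in the vials of mixes 1 and 2, 1044 and 367 in those of mix 4, and 5557 and 6887 without the uneven vials, while 2095 genes were called higher among those with a mean of at least 1 FPKM. For transcripts, from 2875 and 2446, they were 5246 and 4888 after GC correction, 5275 and 5305 with the block added to it, 5898 lower with the block alone, 5668 and 7155 in mixes 1 and 2, 225 and 73 in mix 4, 6262 and 8155 without the uneven vials, and 1462 lower with log2 values averaged over the vials. For isoform shares, from 1 and 2, they were 416 and 420 in mixes 1 and 2, 522 and 530 without the uneven vials, and 0 and 0 with the shares averaged over vials (622 and 614 at an unadjusted p under 0.05), with the lower filter (896 and 935), in mix 4 (395 and 361) and with the replicate block (810 and 810). Leaving out each RNA sample gave 0 to 3671 genes higher and 0 to 5550 lower, 0 to 3048 transcripts higher and 0 to 4747 lower, and 0 to 103 shares higher and 0 to 156 lower, where the highest counts came without the second day 0 sample. The causes were not tested, and the depth behind the values was not worked out.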
